A study of Rattus norvegicus with 6 samples.

Results

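Cytosolic translation initiation and elongation factor genes were examined in RK3E cells transformed by GLI1 and in the parental line. Members were taken by name from the array annotation: every probe set with exactly 1 gene symbol beginning Eif1 to Eif6, Eef1 or Eef2 was kept, and the probe set of highest mean log2 signal stood for its gene. This gave 60 genes on 93 probe sets, of 14217 genes with a single symbol on the array. Of these, 49 were counted as factors, 8 as repressors and kinases (Eif4ebp1 to Eif4ebp3, Eif2ak1 to Eif2ak4, Eef2k) and 3 as methyltransferases of elongation factors. The signal filter, a mean log2 signal above 8.33, was passed by 59 members; Eef1a2, the tissue-restricted isoform of eEF1A, lay below it and was not tested. Another 5 probe sets shared between several symbols were left out, so that Eif3e and Eif5 were not analysed here.

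RK3E is an epithelial line from rat kidney, immortalised by an adenoviral oncogene. The cells were transfected with a GLI1 expression construct, and single transformed foci were picked and kept as lines. GLI1 is the zinc finger transcription factor that acts last in Hedgehog signalling. RNA of GLI1-transformed cells was measured on 4 Affymetrix arrays, of which 1 belongs to clone I, 2 to clone II and 1 to no named clone. The 2 other arrays carried RNA of parental RK3E cells, grown like the transformed cells in serum-containing medium. The labels describe no vector-transfected or focus-picked control line, so transformation by GLI1 and the isolation of a clone cannot be told apart. They call the arrays biological replicates without saying how the cultures were separated, so the p-values below speak for the scatter among these arrays alone, which may be technical.

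In eukaryotes, initiation begins when eIF2 carries the initiator tRNA to the small ribosomal subunit, held there by eIF1, eIF1A, eIF5 and the many-subunit eIF3. The eIF4 factors bind the mRNA cap and unwind the leader, eIF5B joins the large subunit, and eEF1 and eEF2 then drive elongation. The pathway is throttled at the cap, where 4E-BP proteins sequester eIF4E, and at eIF2, whose phosphorylation by the Eif2ak kinases blocks its recycling by eIF2B. Many of these controls act on the proteins, which transcript arrays do not measure.

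The labels held up for the introduced gene: the log2 signal of Gli1 was 11.71 to 13.15 on GLI1 arrays and 5.17 and 6.50 on parental arrays. Integrity of the RNA was read from the 3'/5' ratios of control probe sets. The GAPDH ratio was 7.52 on clone II replicate 1, 3.66 on parental replicate 1 and 1.39 to 2.09 on the other 4 arrays. For beta-actin the ratios on the same arrays were 22.1, 10.8 and 6.21 to 7.58. By that control every array was skewed toward the 3' end. Of 10 markers of kidney and simple epithelium, only Krt8, Epcam and Lrp2 had a mean above the filter; Krt18, Krt19, Cdh1, Pax2, Pax8, Cdh16 and Umod did not. Lrp2, the megalin gene of proximal tubule, fell (log2 -1.09, adjusted p = 0.0437), and Krt8 and Epcam did not pass (0.49 and 1.15, adjusted p = 0.783 and 0.281). Of 5 fibroblast markers, the collagen genes Col1a1 and Col3a1 fell (log2 -5.51 and -7.03), Pdgfra did not pass (-0.06, adjusted p = 0.95), and Dcn and Lum lay below the filter with overlapping groups. The summed signal of the 5 was 1360 to 4738 on GLI1 arrays and 98853 and 110229 on parental arrays. Summed signals of the epithelial list were 2540 to 9954 on GLI1 arrays and 3838 and 4469 on parental arrays, of the endothelial list 444 to 482 and 662 and 667, and of the blood cell list 528 to 1428 and 828 and 953. Of the 3 endothelial genes measured 0 had a mean above the filter, and of the 5 blood cell genes 1 did (Csf1r, barely). These 2 sums therefore rest on weak signals. Kdr and Tek were lower on all GLI1 arrays than on both parental arrays, and Pecam1 was higher. The part of these cell types and of RNA integrity in the results below was not tested, and in bulk RNA fewer cells of a type and less RNA per cell cannot be told apart.

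Transcripts of the translation factors were on balance higher in GLI1-transformed cells, by modest amounts. Of 48 tested factor genes, 7 rose, 0 fell and 41 did not pass at a Benjamini-Hochberg adjusted p under 0.05 in limma, fitted over 18625 probe sets. The 7 were Eif2s2, Eif3b, Eif3d, Eif3i, Eif4a1, Eif4a3 and Eif4b, and their rises lay between 1.5-fold and 1.90-fold. That is 14.6% of the factor genes, beside 7.8% of all 10240 tested genes with a single symbol that rose and 7.75% that fell. Among genes with a mean log2 signal above 10.17, where nearly all the factors lie, 9.02% rose. The median factor gene was at 13.83 to 14.28 on the arrays, so that cut does not match the factors in brightness. At an unadjusted p under 0.05 in limma, 23 of the 48 factor genes were higher and 1 was lower. Of all 10240 tested genes, 1876 were higher and 1527 lower at that cut.

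The direction of the differences was shared more widely than the calls. The log2 difference, GLI1 minus parental, was positive for 40 of the 48 factor genes (83.3%), against 55.3% of all tested genes, and its median was 0.43 against 0.07. For 24 factor genes (50%) all 4 GLI1 arrays lay above both parental arrays, a pattern found in 23.4% of all tested genes. For 2, Eif2s3 and Eif5b, all GLI1 arrays lay below both parental arrays, against 19.8% of all tested genes. Among genes with a mean log2 signal above 10.17, 57.4% were positive and the median was 0.10. All GLI1 arrays lay above both parental arrays in 26% of them. With arrays centred on the median of all probe sets the medians were 0.59 and 0.23, and with quantile normalization 0.36 and 0.10. With the mean over the tested probe sets of a gene, 36 of the 48 factor genes were positive, and the medians were 0.34 and 0.06. The lean was thus smaller with the less bright probe sets averaged in, and the reason was not tested. Less bright probe sets of the factor genes had differences of both signs, and none of them passed. The sign of 6 of the 59 tested members changed between scalings: Eef1a1, Eef1akmt1, Eif1ax, Eif2s1, Eif2s3y and Eif4a2.

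**Figure D1:**
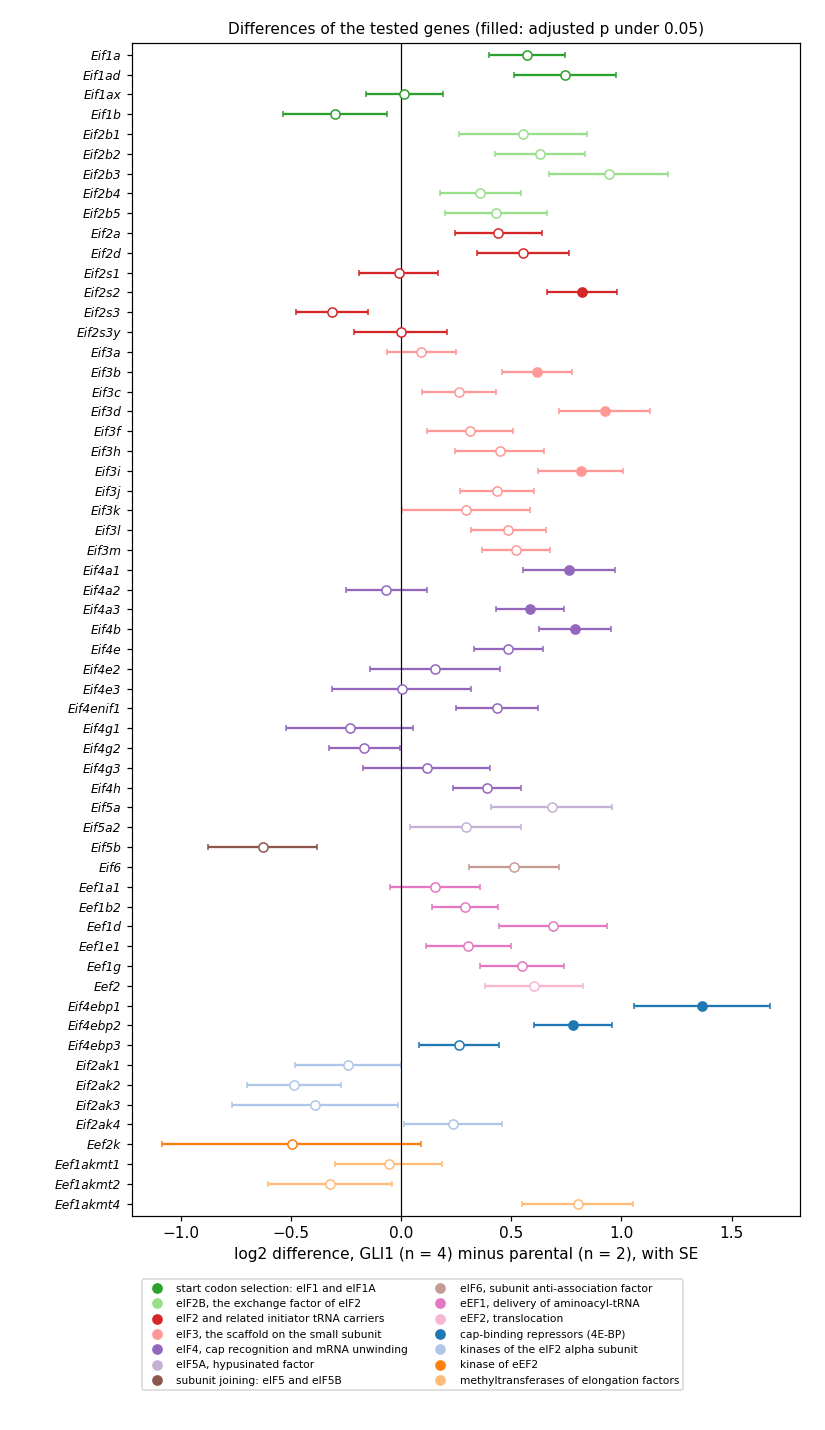
Log2 difference between 4 GLI1 and 2 parental arrays (x axis) for the 59 tested genes (y axis, coloured by role), with bars of 1 SE; filled points passed an adjusted p of 0.05. Most factor genes lie to the right of 0, between Eif5b at -0.63 and Eif2b3 at 0.94, and the 2 filled repressor genes are Eif4ebp1 and Eif4ebp2.

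Each GLI1 array showed the shift, but all were set against the same parental mean. An error in that mean would move all 4 arrays at once, so they are not independent of each other. Relative to the parental mean, the median factor gene stood at 0.35 (log2) where no clone is named, 0.53 in clone I, and 0.39 and 0.42 in clone II replicates 1 and 2. The median over all tested genes was 0.06 to 0.08 on these arrays. Of the 48 factor genes, 37, 41, 38 and 41 lay above the parental mean on the 4 arrays in that order, or 77.1% to 85.4%, against 53.2% to 54.9% of all tested genes. The parental arrays, which lie on either side of their own mean, had 14 and 34 factor genes above it, with medians of -0.07 and 0.07.

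The calls rested on having both parental arrays. With parental replicate 1 or parental replicate 2 left out, 0 factor genes rose, while the share of all tested genes that rose went to 1.46% and 1.84%. Without clone I the count was 2 (Eif2s2 and Eif4b), and it was 0 when the pair with the most skewed GAPDH ratios (replicate 1 of clone II and of the parental line) was dropped, with 0.879% of all genes rising. The median of the factor genes was 0.32 and 0.50 without parental replicates 1 and 2, 0.40 without clone I, and 0.32 without the pair of high GAPDH ratio, where the median of all tested genes was 0.03. The intensity trend in the error model and the signal filter also mattered: 2 factor genes rose without the trend and 4 without the filter, while 11 rose with arrays centred on the median of all probe sets. Of all tested genes 4.18% rose without clone I, 4.81% without the trend, 4.8% without the filter and 10.2% with that centring. Without clone I, and likewise without the trend, 2 of 48 factor genes is near the share of all genes.

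**Figure D2:**
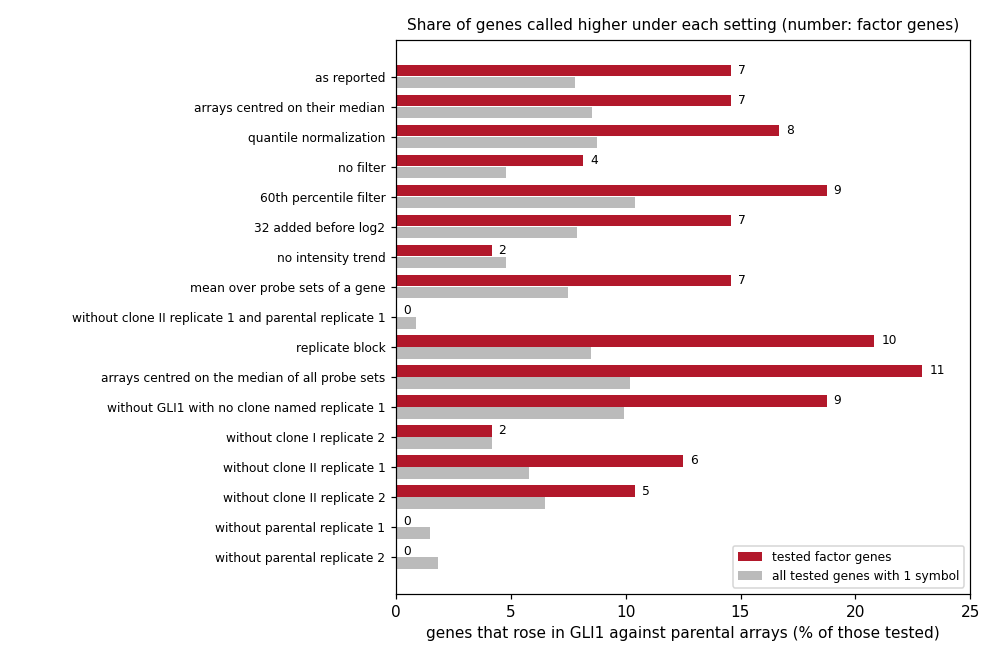
Percent of genes called higher in GLI1 than in parental arrays (x axis) under each analysis setting (y axis), for tested factor genes (red, with their number) and all tested genes with a single symbol (grey). Factor genes number 7 as reported and 0 in the 3 settings that leave out a parental array, where few genes of any kind pass.

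**Figure D3:**
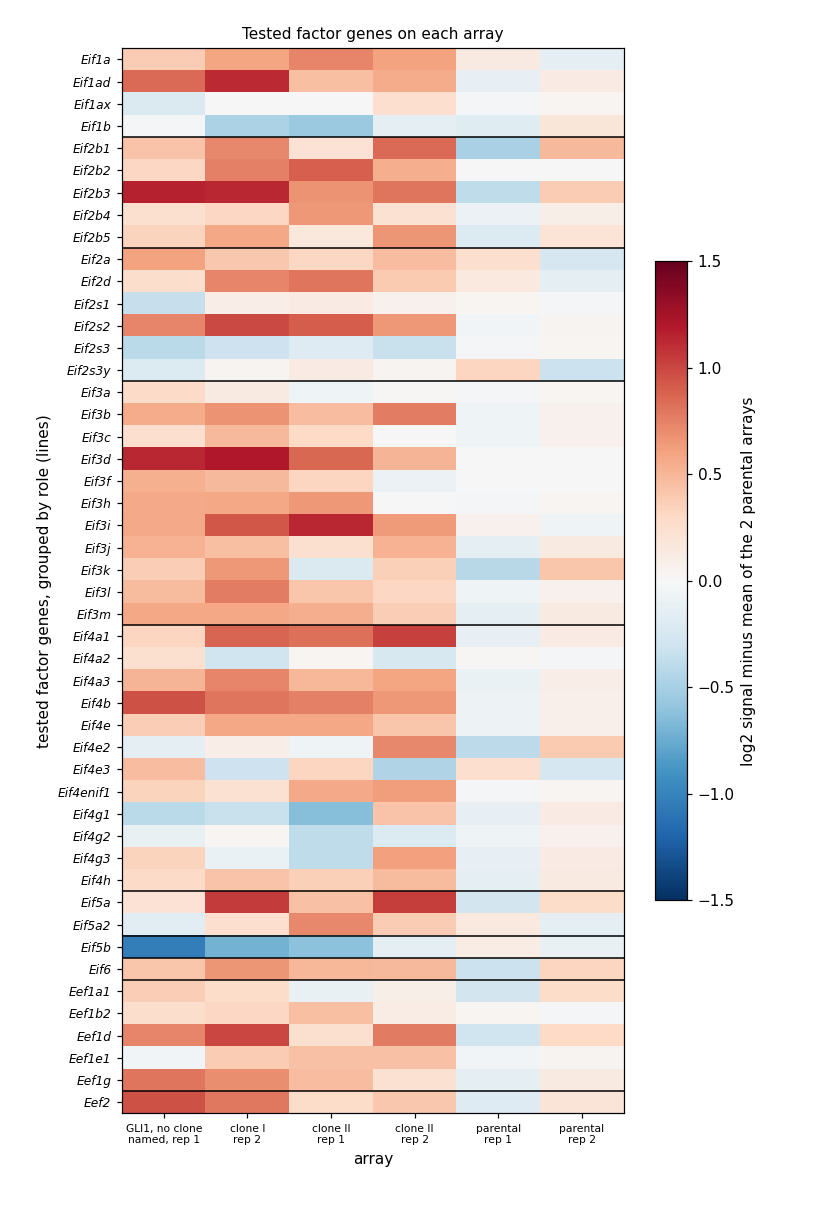
Log2 signal of the 48 tested factor genes (rows, in blocks by role) on each of the 6 arrays (columns), minus the mean of the 2 parental arrays; red is higher and blue is lower. Most cells of the eIF2B and eIF3 blocks are red on the GLI1 arrays, with blue ones among them such as Eif3k on clone II replicate 1, while Eif5b is blue.

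eIF2 is a trimer that delivers the initiator tRNA, and its 3 subunit genes did not move together. Eif2s2, encoding the beta subunit, had log2 signals of 15.68 on the GLI1 array with no clone named, 15.94 for clone I, 15.85 and 15.60 for the clone II replicates, and 14.90 and 14.99 in parental cells. All GLI1 arrays were above both parental arrays, and the gap between groups was wider than the range within either. GLI1 arrays averaged 15.77 ± 0.16 (SD, n = 4) and parental arrays 14.95 ± 0.07 (SD, n = 2), a 1.77-fold rise (log2 0.82, SE 0.16, adjusted p = 0.011), the smallest adjusted p among the factor genes. Eif2s1, encoding the alpha subunit that the stress kinases phosphorylate, gave a log2 difference of -0.01 (SE 0.18, adjusted p = 0.981). The gamma subunit gene Eif2s3 gave -0.31 (SE 0.16, adjusted p = 0.241). Its Y-linked copy Eif2s3y gave 0.00 (SE 0.21, adjusted p = 0.997). These 2 copies are near-identical and their signals may overlap. Eif2a and Eif2d, which encode alternative initiator tRNA carriers, gave 0.44 and 0.55 (adjusted p = 0.179 and 0.118), and did not pass.

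eIF2B is the exchange factor that reloads eIF2 with GTP. All 5 of its subunit genes, Eif2b1 to Eif2b5, had positive differences, from 0.36 (Eif2b4) to 0.94 (Eif2b3), with a median of 0.55, but none passed. The gene nearest to the threshold was Eif2b3, a subunit of the catalytic part (SE 0.27, adjusted p = 0.0512). It was called as risen in 6 of the 16 alternatives: both centrings, quantile normalization, the stricter filter, the mean over probe sets and the replicate block. Its signals were 11.93, 11.91, 11.45 and 11.58 on the GLI1 arrays (no clone named, clone I, clone II replicates 1 and 2, the order kept below) and 10.39 and 11.16 on the parental arrays. The groups did not overlap, and the parental arrays differed from each other by more than the GLI1 arrays did. For Eif2b2, Eif2b3 and Eif2b4 all GLI1 arrays lay above both parental arrays, a pattern found in 23.4% of all tested genes. For Eif2b1 and Eif2b5 the groups overlapped.

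eIF3 is the scaffold of the initiation complex. Of its 11 tested subunit genes, 3 rose (27.3%, beside 7.8% of all tested genes and 9.02% of the brighter ones), 0 fell and 8 did not pass. All 11 differences were positive under each scaling, from 0.09 (Eif3a) to 0.92 (Eif3d), with a median of 0.45. Eif3d, whose product contacts the mRNA cap on some messages, was at 15.56, 15.63, 15.29 and 14.94 on the GLI1 arrays and at 14.44 and 14.42 on the parental arrays. It rose 1.90-fold (log2 0.92, SE 0.21, adjusted p = 0.0212), and the clone II arrays were the lowest of the GLI1 arrays while still above both parental arrays. Eif3i was at 14.85, 15.21, 15.41 and 14.92 against 14.35 and 14.21, a 1.76-fold rise (log2 0.82, SE 0.19, adjusted p = 0.026). Eif3b, encoding a core scaffold subunit, was at 14.56, 14.67, 14.46 and 14.77 against 13.94 and 14.06, a 1.53-fold rise (log2 0.62, SE 0.16, adjusted p = 0.0353). In each of these 3 genes all GLI1 arrays lay above both parental arrays, as in 23.4% of all tested genes. The genes were picked by their calls on the same arrays, so this adds no support. Eif3m (log2 0.52, adjusted p = 0.0554) and Eif3l (0.49, 0.0935) came next and did not pass, and Eif3a, whose product is the largest subunit, gave 0.09 (SE 0.16, adjusted p = 0.753). Less bright probe sets of Eif3a, Eif3c and Eif3k gave differences of opposite sign, none of which passed (log2 -1.05, -0.23 and -0.39; adjusted p = 0.662, 0.811 and 0.535). Without clone I the calls of Eif3b (adjusted p = 0.0878), Eif3d (0.0544) and Eif3i (0.0696) were lost, as was that of Eif3b without clone II replicate 2 (0.071). Without the intensity trend the calls of Eif3b (adjusted p = 0.0905), Eif3d (0.0589) and Eif3i (0.0694) were also lost, and that of Eif3b without the filter (0.0588).

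The eIF4 group reads the cap and unwinds the leader, and Eif4a1, Eif4a3 and Eif4b, 2 helicase genes and a helicase cofactor gene, were those that rose in it. The group had 12 tested members, of which 3 rose (25%, beside the same 7.8% and 9.02%), 9 did not pass and 0 fell, with a median of 0.27. Eif4enif1 was placed here by its symbol, and so among the factors and not the repressors. It did not pass (log2 0.43, adjusted p = 0.161). Eif4b, encoding the cofactor that stimulates the eIF4A helicase, was at 14.13, 13.98, 13.93 and 13.83 on GLI1 arrays and at 13.10 and 13.26 on parental arrays. It rose 1.73-fold (log2 0.79, SE 0.16, adjusted p = 0.0149), with all GLI1 arrays far above both parental arrays relative to the spread in either group. Its other probe set had a log2 difference of 0.48 that did not pass (adjusted p = 0.264). With the mean over probe sets the call of Eif4b was lost (log2 0.633, adjusted p = 0.07005). Eif4a1, the main eIF4A helicase gene, was at 14.89, 15.44, 15.39 and 15.59 against 14.44 and 14.69. It rose 1.70-fold (log2 0.76, SE 0.21, adjusted p = 0.0453), with the array that has no clone named close above the higher parental array. Eif4a3, whose product is a related helicase of the exon junction complex rather than of initiation, was at 15.03, 15.25, 15.01 and 15.11 against 14.41 and 14.62, a 1.5-fold rise (log2 0.59, SE 0.16, adjusted p = 0.0392). The close paralog Eif4a2 gave -0.07 (SE 0.18, adjusted p = 0.851), a difference that turns positive with arrays centred on the median of all probe sets. Eif4h, encoding another helicase cofactor, gave 0.39 (adjusted p = 0.132).

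Within that group Eif4a1 and Eif4a3 were the least firm. The call of Eif4a1 was lost without clone I (adjusted p = 0.107), clone II replicate 1 (0.0817) or clone II replicate 2 (0.0835), and with arrays centred on their medians (0.0522 and 0.053). That of Eif4a3 was lost without the same arrays (0.0983, 0.0596 and 0.0692). Neither was called without the filter or without the trend. In the 9 member genes that rose, the 7 factors and 2 repressors, the log2 difference stayed between 0.48 and 1.02 without parental replicate 1 and between 0.64 and 1.71 without parental replicate 2, with adjusted p-values of 0.0897 to 0.293 and 0.0523 to 0.172.

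The cap-binding and scaffold genes of the same complex did not pass. Eif4e, encoding the cap-binding protein itself, was at 14.40, 14.62, 14.62 and 14.45 on GLI1 arrays and at 13.96 and 14.11 on parental arrays. The groups did not overlap, and the difference of 0.49 (SE 0.16, adjusted p = 0.0745) lay short of the threshold. Eif4g1, encoding the scaffold that joins eIF4E, eIF4A and eIF3, was at 12.25, 12.33, 12.02 and 13.09 against 12.54 and 12.78; clone II replicate 2 stood above both parental arrays and the 3 other GLI1 arrays below them (log2 -0.23, SE 0.29, adjusted p = 0.647). Of the 3 other probe sets of Eif4g1, none passed, with log2 differences of 0.12, -0.80 and -0.20 (adjusted p = 0.806, 0.452 and 0.84). Eif4g2, encoding a scaffold without the cap-binding arm, gave -0.17 (adjusted p = 0.547), and its other probe sets -0.71 and -0.52 (0.0551 and 0.23).

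**Figure D4:**
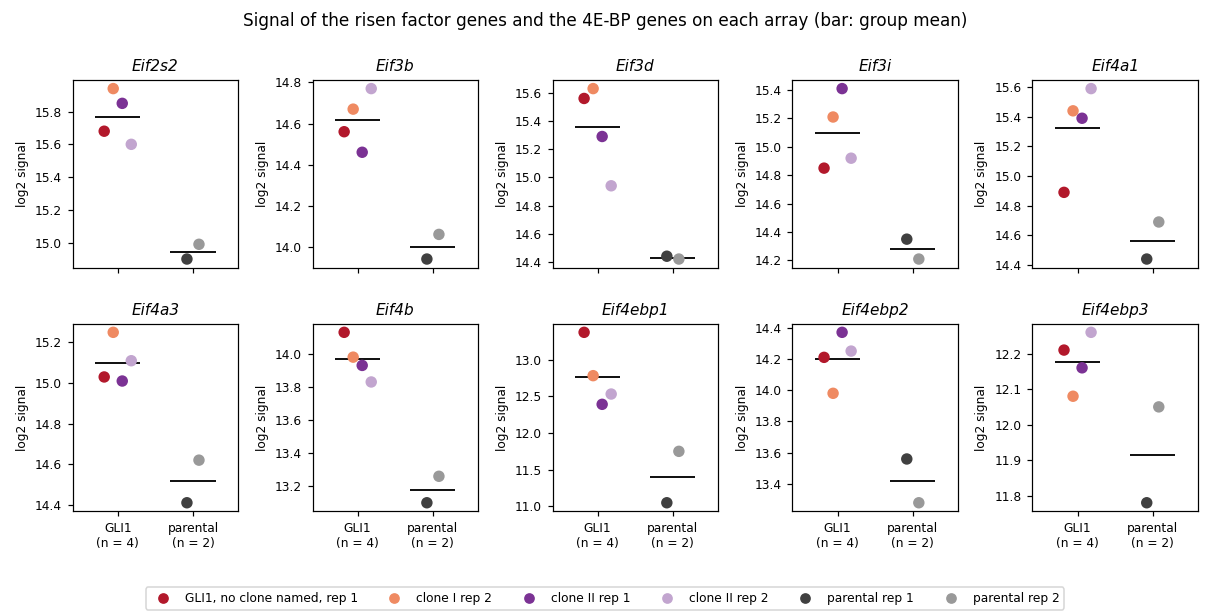
Log2 signal (y axes, each with its own range) of the 7 factor genes that rose and of the 3 4E-BP genes on each array, by group; bars are group means and colours mark the arrays. In all 10 panels the 4 GLI1 arrays lie above both parental arrays, and Eif4ebp3 alone did not pass. The 7 factor genes are shown because they passed on these same arrays, so their separation adds no support. The pattern was found in 23.4% of all tested genes.

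The repressors of the cap-binding protein were also higher. Eif4ebp1 and Eif4ebp2 encode 4E-BPs, which bind eIF4E unless mTOR phosphorylates them. Eif4ebp1 was at 13.37, 12.78, 12.39 and 12.53 on GLI1 arrays and at 11.05 and 11.75 on parental arrays. Its mean was 12.77 ± 0.44 (SD, n = 4) in GLI1 and 11.40 ± 0.49 (SD, n = 2) in parental cells, a 2.58-fold rise (log2 1.37, SE 0.31, adjusted p = 0.0216), the largest difference among all 59 tested members. The array with no clone named was the highest, and the parental arrays were 0.70 apart. Eif4ebp2 was at 14.21, 13.98, 14.37 and 14.25 against 13.56 and 13.28, and rose 1.72-fold (log2 0.78, SE 0.18, adjusted p = 0.0213). Eif4ebp3 was at 12.21, 12.08, 12.16 and 12.26 against 11.78 and 12.05; its groups did not overlap, but the difference of 0.26 (SE 0.18, adjusted p = 0.383) did not pass. The call of Eif4ebp1 was lost without clone I (adjusted p = 0.0554) and that of Eif4ebp2 without the intensity trend (0.0589). Of the 8 repressors and kinases 2 rose and 0 fell, beside 7.8% and 7.75% of all tested genes. The counts were 0 and 0 when parental replicate 1 or 2 was dropped, where 1.46% and 1.84% of all tested genes rose, and 1 and 0 without clone I, where 4.18% did.

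None of the 4 kinases of eIF2 passed. Eif2ak2, encoding the double-stranded RNA sensor PKR, was at 11.71, 11.85, 11.58 and 12.18 on GLI1 arrays and at 12.30 and 12.33 on parental arrays. All GLI1 arrays lay below both parental arrays (log2 -0.49, SE 0.22, adjusted p = 0.174). Eif2ak3, encoding the endoplasmic reticulum stress kinase PERK, was at 11.04, 10.27, 10.27 and 9.58 against 10.83 and 10.53 (log2 -0.39, SE 0.38, adjusted p = 0.543). Its groups overlapped, with the array that has no clone named above both parental arrays. Eif2ak1, the heme-regulated kinase gene, was at 12.46, 12.27, 12.09 and 12.49 against 12.21 and 12.93, all but 1 of the GLI1 arrays lying between the parental arrays (log2 -0.24, SE 0.24, adjusted p = 0.559), a sign that turned without parental replicate 2 (0.12). Eif2ak4, encoding the amino acid sensor GCN2, was at 13.51, 13.40, 12.79 and 13.34 against 13.02 and 13.03 (log2 0.23, SE 0.22, adjusted p = 0.535). Clone II replicate 1 was the GLI1 array below the parental pair.

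Among the remaining initiation genes none passed. Eif1a and Eif1ad, an eIF1A gene and a gene with an eIF1A-like domain, gave 0.57 (adjusted p = 0.0607) and 0.74 (0.0658), with all GLI1 arrays above both parental arrays. The 3 other probe sets of Eif1a gave 0.52, 0.39 and 0.38 and did not pass either (adjusted p = 0.131, 0.332 and 0.254). Eif1ax gave 0.01 (0.969) and Eif1b -0.30 (0.448). Eif5a, encoding the hypusine-bearing factor, gave 0.68 (0.138) and its isoform gene Eif5a2 0.29 (0.491), where another probe set gave -0.50 (0.164). Eif6, encoding the factor that keeps ribosomal subunits apart, gave 0.51 (0.136).

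Eif5b, the subunit-joining factor gene, had the lowest difference of all factor genes. Its signals were 11.99, 12.32, 12.42 and 12.88 on GLI1 arrays and 13.14 and 12.92 on parental arrays. All GLI1 arrays lay below both parental arrays, clone II replicate 2 only just, and the difference of -0.63 (SE 0.25, adjusted p = 0.132) did not pass. The 2 other probe sets of Eif5b gave -0.50 and -0.91 (adjusted p = 0.3 and 0.0847).

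Of the elongation factor genes 0 passed, although all 6 tested differences were positive with signals as deposited. Eef2, encoding the translocase, was at 16.25, 16.09, 15.57 and 15.71 on GLI1 arrays and at 15.11 and 15.49 on parental arrays. The groups were apart by a small margin, from 15.49 to 15.57 (log2 0.60, SE 0.22, adjusted p = 0.111), and the gene was called only with arrays centred on the median of all probe sets (adjusted p = 0.0445). Eef1a1, the main aminoacyl-tRNA carrier, was at 16.43, 16.34, 15.95 and 16.15 against 15.79 and 16.33, and its groups overlapped (log2 0.16, SE 0.20, adjusted p = 0.67). That sign turned with quantile normalization (-0.10). The probe set used for Eef1a1 is of the kind whose probes are shared by several transcripts, and a second gave 0.20 (adjusted p = 0.673). The exchange subunit genes Eef1d and Eef1g gave 0.69 and 0.55 (adjusted p = 0.1 and 0.095) and Eef1b2 0.29 (0.243). Another probe set of Eef1g gave -0.24 (adjusted p = 0.669). Eef1e1, whose product sits in the multi-synthetase complex despite its name, gave 0.31 (adjusted p = 0.337).

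Eef2k, the kinase that inactivates eEF2, was at 9.29, 7.84, 8.83 and 7.23 on GLI1 arrays and at 8.94 and 8.65 on parental arrays, a wide scatter among GLI1 arrays near the signal filter (log2 -0.50, SE 0.59, adjusted p = 0.631). Of the methyltransferase genes, Eef1akmt4 gave 0.80 (adjusted p = 0.0683), with the groups apart, Eef1akmt2 -0.32 (0.498) and Eef1akmt1 -0.06 (0.907). None of the 3 passed.

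The transformed lines were also set against each other, clone II (2 arrays) against the 2 other GLI1 arrays, in a model that kept the parental arrays as a separate level. In limma 0 of the 59 members passed in either direction. An unadjusted p under 0.05 was found for 2 of the 59, and for 1052 of all 10240 tested genes with a single symbol. Of all tested genes with a single symbol 0.176% were called. Eef2 was lower in clone II by a log2 difference of -0.53 (SE 0.20, unadjusted p = 0.0288, adjusted p = 0.506) and Eif3d by -0.47 (SE 0.19, unadjusted p = 0.0377, adjusted p = 0.547). Differences over the factor genes ran from -0.53 to 0.51 with a median of -0.05, and SEs of single members from 0.18 (Eif3a) to 0.69 (Eef2k), and 2 arrays against 2 give little power for differences of that size. Among the 4 GLI1 arrays the median SD of a factor gene was 0.23, beside 0.28 over all tested genes.

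Other genes of translation control were read from a list of 54, of which 47 were measured and tested. Of these 4 rose (8.51%, beside 7.8% of all tested genes), 3 fell (beside 7.75%) and 40 did not pass, with a median of 0.14. These shares are near the background, so the genes below are single genes and not a result about the list. Larp1, encoding an mRNA-binding protein of the mTOR pathway that acts on messages with a pyrimidine-rich start, rose by a log2 difference of 0.76 (SE 0.15, adjusted p = 0.0105). Of its 3 other probe sets 2 also rose (log2 1.02 and 1.01, adjusted p = 0.00328 and 0.0145) and 1 did not pass (0.75, 0.112). Larp1 was at 14.64, 14.54, 14.60 and 14.69 on GLI1 arrays and at 13.86 and 13.85 on parental arrays, so both groups were tight and well apart. Denr, encoding a reinitiation factor, rose by 0.87 (adjusted p = 0.0178), Dph7, an enzyme gene for the diphthamide residue of eEF2, by 0.96 (0.0324), and Hbs1l, a ribosome rescue gene, by 0.70 (0.0469). The other probe sets of Denr and Hbs1l did not pass (log2 0.26 and 0.42, adjusted p = 0.681 and 0.538).

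Pelo, whose product partners that of Hbs1l in ribosome rescue, moved the other way. It fell by a log2 difference of 1.08 (SE 0.21, adjusted p = 0.0114), from 13.69 and 13.86 on parental arrays to 12.47, 12.56, 13.09 and 12.66 on GLI1 arrays. Fmr1 and Cpeb1 also fell. Fmr1, encoding an RNA-binding repressor of translation, gave a log2 difference of -0.80 (adjusted p = 0.0418) and Cpeb1, encoding a regulator of poly(A) tails, gave -2.39 (0.0469). Cpeb1 was at 7.53, 9.41, 10.52 and 9.47 on GLI1 arrays and at 11.69 and 11.56 on parental arrays, so the groups were apart but the GLI1 arrays scattered widely. Its call was lost with the replicate block (adjusted p = 0.0587), quantile normalization (0.068), either centring (0.0543 and 0.0624), no filter (0.0606), no trend (0.0782), and without clone I (0.0911) or clone II replicate 2 (0.0697). That of Fmr1 was lost with either centring (0.0653 and 0.153), no filter (0.0508), no trend (0.0781), and without the array of no named clone (0.0518), clone I (0.0996) or clone II replicate 1 (0.0596). Of the risen genes, Denr lost its call without clone I (0.0513), and Dph7 and Hbs1l without clone I (0.0661 and 0.112), clone II replicate 1 (0.0705 and 0.0774) or clone II replicate 2 (0.0531 and 0.0934). Denr and Hbs1l also lost theirs with the mean over probe sets (0.0905 and 0.201), and Hbs1l with no filter (0.057) and no trend (0.0827). The cap-dependent signalling genes Mtor (log2 0.29, adjusted p = 0.358), Rptor (0.44, 0.157) and Rps6kb1 (0.31, 0.314) did not pass. Dropping either parental array left 0 risen and 0 fallen genes in the list, dropping clone I left 1 and 1, and there were 2 risen without clone II replicate 1 and 8 risen when the GLI1 array of no named clone was dropped. Larp1 and Pelo lost their calls only where a parental array was missing (Larp1 adjusted p = 0.102 and 0.0853, Pelo 0.0875 and 0.107, without parental replicates 1 and 2). Of 15 listed mitochondrial translation factor genes 13 were measured and tested. In limma 0 rose and 0 fell. At an unadjusted p under 0.05 in limma, 1 of the 13 was higher and 0 were lower. Of all 10240 tested genes, 1876 were higher and 1527 lower at that cut, so the list was not above the share of all genes. Differences were positive for 12 of the 13 (92.3%), beside 83.3% of the cytosolic factor genes and 55.3% of all tested genes. Their median was 0.31, beside 0.43 and 0.07. All GLI1 arrays lay above both parental arrays for 46.2% of them, beside 50% and 23.4%. The lean in direction was thus not confined to the cytosolic factor genes. Whether the lists differ was not tested. Tufm, the elongation factor gene of the mitochondrial list, gave 0.38 (SE 0.20, adjusted p = 0.255).

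Promoter windows were read because the factor genes leaned one way together. RefSeq windows of 300 bases (250 before to 50 after the annotated start, GRCr8) were matched by symbol for 45 of the 49 factor genes. The E-box CACGTG, the palindrome bound by Myc and related factors, was in 10 of them (22.2%). It was in 10.4% of 8600 matched tested genes and in 6.42% of all 33469 windows; median GC content was 60.3% in the factor genes and 61.3% in the tested genes. It was in 1 of 6 matched genes that rose (Eif3b) and in 9 of 38 that did not pass, and these few genes were not tested for a difference. The GLI consensus GACCACCCA, searched on both strands, was in 0 of the 45 and in 0.349% of the tested genes. These are matches of letters, not measured binding. Windows of 30 bases around the E-box (capitals) are shown for the 1 risen gene that holds it and for the cap-binding and translocase genes:
Eif3b, chr12:19334808-19334837, minus strand: actcgctgcacgCACGTGgctccgcgctag
Eif4e, chr2:229740504-229740533, plus strand: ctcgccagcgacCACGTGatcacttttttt
Eif4e, chr2:229740661-229740690, plus strand: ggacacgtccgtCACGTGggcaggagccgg
Eef2, chr7:9189297-9189326, minus strand: cacccgcgccgtCACGTGacgtgcccaacc
All 4 lie upstream of the annotated start. Eif4e holds 2 E-boxes, the nearer one beginning 80 bases before the start; those of Eef2 and Eif3b begin 76 and 57 bases before it.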

How the data were processed

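Biotin-labelled cRNA was hybridised to 1-colour Affymetrix rat arrays, per the labels' protocols. Each array's deposited column holds linear intensity, 1 MAS5 signal per probe set, per the submitters' processing notes; the MAS5 version and genome build are not given in the sources used here. Detection calls were not used.

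The 12 signals under 1 were raised to 1 before taking log2. Of 31042 probe sets other than 57 controls, the 18625 with a mean log2 above the 40th percentile were tested with limma 3.58.1 (R 4.3.3; lmFit, eBayes with intensity trend, two-sided, Benjamini-Hochberg over all tested, threshold 0.05; 4 residual degrees of freedom, 3 in the model with clone II as a level). Of 20826 single-symbol probe sets, 20758 matched a rat gene list (GRCr8) by identifier with 0 changed symbols. "Rose" and "fell" mean an adjusted p under 0.05. Differences are GLI1 minus parental, log2.

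Genes named with every array's value were the members called, all Eif4ebp and Eif2ak genes, Eef2k, Eif4e, Eif4g1, Eef1a1 and Eef2; from the related lists, called genes were named, up to 8 a list, with array values for 3 of them (Larp1, Pelo, Cpeb1). Eif2b3, Eif5b, the other probe sets, Mtor, Rptor, Rps6kb1 and Tufm were added after their values were seen. Members and lists were chosen with earlier results of these data known. The fit was tested on simulated data. Alternatives covered scaling, filter, offset, trend, probe set choice, left-out arrays and a replicate block; centring on the median of all probe sets was added after seeing the data.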

Additional observations from a re-analysis of the deposited data

Results flagged for a closer look

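In 3 of 59 tested members 1 of the 4 GLI1 arrays stood apart from the other 3, by Dixon's ratio of the gap to the range above its critical value; chance gives about 5% of such groups. The array with no clone named was low for Eif2s1 (ratio 0.899; 14.17 against 14.58 to 14.63) and for Eef1e1 (0.864; 13.02 against 13.45 to 13.51). Clone II replicate 2 was low for Eif3h (0.861; 15.28 against 15.84 to 15.93), at the level of the parental arrays (15.24 and 15.31). None of the 3 genes passed in either comparison; without clone II replicate 2, Eif3h was called as risen.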

How the results depend on the processing

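Under 16 alternatives 0 factor, repressor or kinase genes fell and 0 mitochondrial factor genes were called, and 0 factor genes were called in the clone II comparison. The 7 risen factor genes became 4 without the filter, 2 without the intensity trend, 0 without clone II replicate 1 and parental replicate 1, and 11 with arrays centred on the median of all probe sets; with 1 array left out they numbered 0 to 9. Risen repressor and kinase genes (2) became 1 without the trend and 0 without that pair of arrays, and 0 to 2 with 1 array left out. In the other translation control list the 4 risen genes became 0 without that pair and 0 to 8 with 1 array left out; the 3 fallen became 1 with either centring, without the filter or without the trend, 0 without that pair, and 0 to 3 with 1 array left out. Among the genes followed singly through all settings, signs reversed, with no call on either side, for Eif2ak1 without parental replicate 2 (0.12; range with 1 array left out -0.60 to 0.12) and for Eef1a1 with quantile normalization (-0.10), without that pair (-0.03) and without parental replicate 1 (-0.12; range -0.12 to 0.43). The titles give groups the same replicate numbers; deviations of clone II and parental arrays of the same number correlated at 0.321, which is 1 pair of groups and does not show pairing. With the replicate block 10 factor genes rose, the 7 and Eef1d, Eif2b3 and Eif5a, and Cpeb1 was no longer called. The cause of these changes was not tested, beyond the fewer arrays or other genes tested that a setting brings. Only 2 parental arrays limit the precision, and MAS5 scaling cannot show a change common to all transcripts.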
